A study of Mus musculus with 15 samples.

Results

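Tetraspanins and surface proteins carried by nearly all leukocytes were examined in macrophages exposed to plasma extracellular vesicles (EVs). The genes were taken by symbol, namely the tetraspanins Cd9, Cd53, Cd81 and Cd82 and the leukocyte surface proteins Cd48, Cd164, Ptprc (CD45) and Spn (CD43). These are 8 of the 561 genes of the nanoString nCounter Mouse Immunology panel. A ninth gene chosen by symbol, Cd47, had no row under that symbol and was not analysed here. The cells were RAW 264.7, a mouse macrophage line, and all of them were given lipopolysaccharide (LPS) together with EVs for 24 hours. The EVs came from plasma of female C57BL/6J mice aged 6 to 8 weeks. There were 5 groups of 3 samples, defined by the EVs added: sham mice, mice 3 or 7 days after 2 Gy of whole body irradiation (WBIR), and mice 3 or 7 days after 9 Gy of WBIR. The day on which sham EVs were taken is not in the labels, and no group lacked LPS or EVs. The study's methods state that samples were run in triplicate, and nothing says that these were separate cultures or EV preparations, so the p-values measure the spread between these samples, which may be technical. The labels and the methods differ on the number of EVs added and on the lysis reagent.

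Tetraspanins are small proteins that cross the membrane several times and gather partner proteins, such as integrins and signaling receptors, into membrane microdomains. CD9, CD81 and CD82 occur on many cell types and on EVs, and CD53 is largely restricted to leukocytes. CD45 is a receptor tyrosine phosphatase that acts on Src family kinases, CD43 is a long sialomucin of the leukocyte surface, CD164 is a sialomucin linked to adhesion, and CD48 is a GPI-anchored ligand of CD2 and CD244. CD47, the ligand of the phagocyte receptor SIRPα, is the best known of the group in macrophage biology. The panel measures RNA of the cells, so the levels below are transcript counts and not protein on the surface or on the EVs added.

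The promoter letters of 2 tetraspanin genes that fell (Cd82 and Cd81) and of 2 members that did not pass in any comparison with the counts as deposited and housekeeping scaling (Cd53 and Ptprc) are shown to set them side by side. All 8 genes matched RefSeq promoter sequences of GRCm38.p6 by symbol, with 12 start windows in total, of which Cd82 has 4 and Ptprc 2. Printed are the 250 bases before the start on the gene's own strand, for Cd82 and Ptprc the first listed window. The windows are chr2:93462951-93463200 on the minus strand for Cd82, chr7:143052500-143052749 on the plus strand for Cd81, chr3:106790150-106790399 on the minus strand for Cd53 and chr1:138175306-138175555 on the minus strand for Ptprc. Capitals mark the GC box GGGCGG and the ETS core GAGGAA, the form bound by PU.1, the lineage factor of macrophages, each searched on both strands.
Cd82: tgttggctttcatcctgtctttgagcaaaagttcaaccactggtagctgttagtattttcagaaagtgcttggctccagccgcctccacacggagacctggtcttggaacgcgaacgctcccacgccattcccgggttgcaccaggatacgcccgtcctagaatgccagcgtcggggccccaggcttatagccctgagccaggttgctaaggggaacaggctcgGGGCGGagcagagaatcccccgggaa
Cd81: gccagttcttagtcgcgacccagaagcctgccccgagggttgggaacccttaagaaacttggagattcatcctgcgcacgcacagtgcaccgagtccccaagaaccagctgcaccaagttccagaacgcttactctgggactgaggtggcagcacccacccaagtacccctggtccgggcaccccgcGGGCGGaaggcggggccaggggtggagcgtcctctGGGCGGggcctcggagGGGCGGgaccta
Cd53: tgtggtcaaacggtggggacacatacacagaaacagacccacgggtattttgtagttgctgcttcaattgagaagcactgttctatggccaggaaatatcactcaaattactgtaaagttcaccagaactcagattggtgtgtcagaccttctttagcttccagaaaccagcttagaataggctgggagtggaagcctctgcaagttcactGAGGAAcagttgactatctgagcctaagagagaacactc
Ptprc: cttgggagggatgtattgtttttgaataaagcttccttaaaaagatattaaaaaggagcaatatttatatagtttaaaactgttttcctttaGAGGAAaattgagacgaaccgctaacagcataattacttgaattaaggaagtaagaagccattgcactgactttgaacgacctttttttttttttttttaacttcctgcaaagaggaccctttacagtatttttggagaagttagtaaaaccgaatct
The GC box was found in 32.7% of 32851 promoter windows of this length and the ETS core in 23.3%. The Cd82 window holds 1 GC box and 14 CpG, and that of Cd81 holds 3 GC boxes and 16 CpG. The Cd9 window (chr6:125494761-125495010, minus strand) likewise has 2 GC boxes and 16 CpG, and that of Cd164 (chr10:41519250-41519499, plus strand) has 4 GC boxes, 1 ETS core and 33 CpG. The printed windows of Cd53 and Ptprc each have 1 ETS core, no GC box, and 2 and 4 CpG. The other windows of Cd82 and Ptprc differ from those printed. For Cd82 the second has 1 GC box and 12 CpG, the third 2 ETS cores, no GC box and 11 CpG, and the fourth neither motif and 3 CpG. The second Ptprc window has neither motif and 2 CpG. The windows of Spn and Cd48 have 3 and 4 CpG and neither motif. The median over all windows was 6 CpG, with an interquartile range of 2 to 16. Of the 12 windows, 0 held the NF-κB consensus, which 7.25% of all windows hold, and 0 held TATAAA, read on the gene's strand, which 7.59% hold.

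Counts were low in one group. Total counts per sample were 43176 to 87899 in the 9 Gy day 3 group and 453178 to 837995 in the other 12 samples, and 43.2% of the values tested were under 20 counts in that group, against 2.79% in the others. The characteristics of 2 of its 3 samples give day 7, whereas the titles give day 3. They were kept at day 3. Calls that change without them are given for the 6 tested members only. The day 3 values of other genes and of the gene lists, and the day 3 shares over all genes, rest on all 3 samples. Normalized counts are raw counts divided by the sample's level of 14 housekeeping genes, taken as their geometric mean relative to that of all 15 samples. That geometric mean was 454 to 545 counts in the sham group, 801 to 872 at 9 Gy day 7 and 69.2 to 124 at 9 Gy day 3. Totals were 568097 to 729491 in the sham group and 453178 to 617963 at 9 Gy day 7. The scaling takes the housekeeping level as equal between groups, so values called lower with it rest on that. All 8 measured genes of the macrophage marker list averaged 20 or more counts, as did 2 of 8 T and NK cell genes, 1 of 7 B cell genes, 0 of 4 granulocyte genes and 0 of 3 platelet genes. The summed normalized count of the macrophage genes was 16800 to 17500 in the sham group, 7430 to 8630 in the 9 Gy day 3 group and 6730 to 8130 in the 9 Gy day 7 group. Most of this sum is Cybb (8948 to 12800 in the sham group and 4573 to 5554 over both 9 Gy groups), and the list did not move as a whole. In the edgeR test described below, 6 of its 8 genes fell and 1 rose at each 9 Gy day. Of all genes tested, 41.3% and 49.1% fell and 11.2% and 11.9% rose. With total counts 1 and 0 of the 8 fell and 2 rose at each day. In that scaling 33 and 31 of the 269 genes tested fell, and 121 and 143 rose. Csf1r, the receptor for CSF-1, was higher (log2 fold change 2.29 and 1.87, edgeR adjusted p = 8.85e-06 and 1.44e-05), and Tlr4 did not pass (-0.17 and -0.02). The summed level of the T and NK cell genes was 150 to 176, 76.1 to 119 and 83.5 to 101 in these groups, with Cd8a the highest at 175 raw counts or fewer. Their part in the results below was not tested, and in such bulk RNA fewer cells and less RNA per cell cannot be told apart.

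After exposure to EVs from mice given 9 Gy, transcripts of 3 tetraspanins were lower with housekeeping scaling, Cd82 most, and those of the other tested members did not pass the threshold. Cd82 was 3.32-fold lower than in the sham group at 9 Gy day 3 and 4.01-fold lower at day 7, and Cd81 was 1.85-fold and 2.30-fold lower. The Cd81 call was lost at day 3 with TMM and median-of-ratios scaling and at both days with total counts, where the day 3 value turned positive (0.12). Cd9 was 1.42-fold lower at day 7 but did not pass at day 3, and its day 7 call was lost with TMM and median-of-ratios scaling and turned to higher with total counts. The test was edgeR's quasi-likelihood test over 269 genes, those averaging 20 or more counts, with Benjamini-Hochberg adjustment and a threshold of 0.05. 6 of the 8 members were tested (Cd9, Cd53, Cd81, Cd82, Cd164 and Ptprc), whereas Spn and Cd48, with means of 19.4 and 8.13 raw counts, were under the minimum. At 9 Gy day 3, 2 of the 6 fell and 0 rose, where 41.3% of all genes tested fell and 11.2% rose, or 52.4% in either direction. At 9 Gy day 7, 3 of the 6 fell and 0 rose, where 49.1% fell and 11.9% rose, or 61% in either direction. The share of members that fell was thus near that of the panel. When samples were scaled to total counts, 4 of the 6 rose and 1 fell at day 7. Of the 269 genes tested, 143 rose and 31 fell with that scaling.

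**Figure D1:**
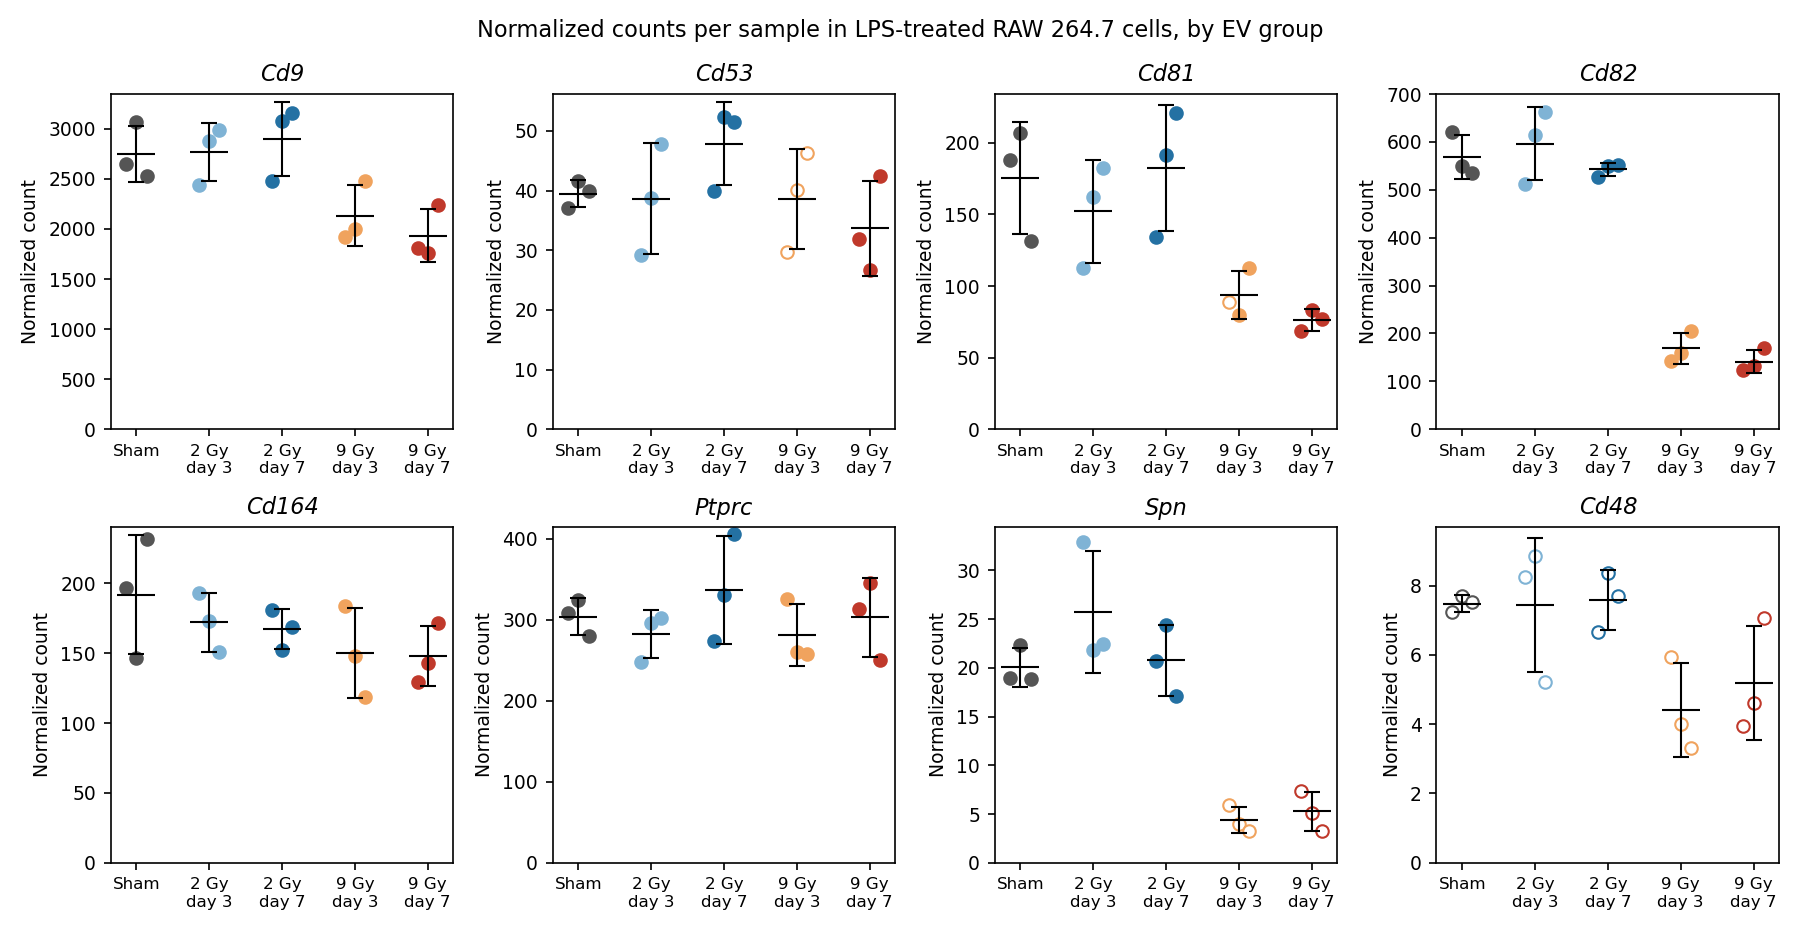
Normalized counts (vertical axis, linear from 0, a separate scale for each gene) of the 8 measured members in each EV group (horizontal axis). Each circle is 1 sample, open where the raw count was under 20, and the horizontal line and bar are the mean and SD of 3 samples. The 9 Gy samples of Cd82 lie between 122.9 and 204.7, below every other sample, and those of Spn between 3.30 and 7.38, whereas the groups of Ptprc overlap.

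Cd82 encodes a tetraspanin that restrains motility in tumor cells and associates with integrins. Its normalized counts were 620.4, 550.7 and 534.7 in the sham group, 512.6, 614.8 and 662.7 in the 2 Gy day 3 group, and 527.6, 550.4 and 552.1 in the 2 Gy day 7 group. With 9 Gy day 3 EVs they were 142.3, 160.2 and 204.7, and in the 9 Gy day 7 group 122.9, 132.1 and 169.5. All 6 samples at 9 Gy were below all 9 others, and within each of these sets the groups overlapped. Cd82, Cd81 and Cd9 lay below all sham samples at both 9 Gy days, as did 43.9% of genes tested at day 3 and 49.1% at day 7. The group means were ordered 2 Gy day 3 (596.7 ± 76.7, SD, n = 3), sham (568.6 ± 45.6), 2 Gy day 7 (543.4 ± 13.7), 9 Gy day 3 (169.1 ± 32.2) and 9 Gy day 7 (141.5 ± 24.7), and the only neighbors without overlap were 2 Gy day 7 and 9 Gy day 3, which differed 3.21-fold. Against sham EVs the log2 fold change was -1.73 (SE 0.17, edgeR adjusted p = 3.05e-06) at day 3 and -2.00 (SE 0.16, edgeR adjusted p = 3.29e-07) at day 7, which ranked 31 and 23 from the lowest among the 269 genes tested. The raw counts at 9 Gy day 3 were 24, 40 and 62, against 687 to 716 in the sham group, so single values of that group carry a large counting error. With both conflicting samples left out, which leaves 1 sample that is taken to vary like the other groups, Cd82 at day 3 still passed, with an adjusted p of 0.00106, the highest among the alternatives, which ranged down to 5.86e-18.

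Cd81 encodes a tetraspanin found on many cell types, macrophages included, and widely used as an EV marker. It had 187.8, 206.9 and 131.8 normalized counts in the sham group, 112.6, 162 and 182.3 in the 2 Gy day 3 group, and 134.5, 191.8 and 221.2 in the 2 Gy day 7 group. The 9 Gy day 3 samples had 88.9, 80.1 and 112.3, and the 9 Gy day 7 samples 68.3, 83.5 and 76.7. Again the 6 samples at 9 Gy were below the other 9, but at 9 Gy day 3 the highest, 112.3, lay just under the lowest 2 Gy day 3 sample, 112.6. In order, the means were 182.5 ± 44.1 (SD, n = 3) for 2 Gy day 7, 175.5 ± 39.0 for sham, 152.3 ± 35.9 for 2 Gy day 3, 93.8 ± 16.6 for 9 Gy day 3 and 76.2 ± 7.58 for 9 Gy day 7. Only 2 Gy day 3 and 9 Gy day 3 were neighbors that did not overlap, with a ratio of means of 1.62. Cd81 fell by 0.89 on the log2 scale at day 3 (SE 0.27, edgeR adjusted p = 0.0127) and by 1.20 at day 7 (SE 0.23, edgeR adjusted p = 0.000583). The day 3 call was lost without 9 Gy day 3 replicate 2 (adjusted p = 0.0587) and with both conflicting samples left out (log2 fold change -0.64, adjusted p = 0.247). Over all alternatives other than leaving out 1 sample, its adjusted p at day 3 ranged from 0.00258 to 0.692, and the day 7 call was kept without any 1 sample (adjusted p up to 0.00439). The day 3 call was also lost with TMM (adjusted p = 0.171) and median-of-ratios (adjusted p = 0.179), and with total counts neither day passed (0.12 and -0.09, the latter with adjusted p = 0.71).

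Cd9 encodes a tetraspanin widely used as an EV marker, which also organizes integrins at the macrophage surface. With sham EVs its normalized counts were 2652, 3068 and 2528, in the 2 Gy day 3 group 2436, 2878 and 2990, and in the 2 Gy day 7 group 2478, 3077 and 3154. They were 1921, 2002 and 2480 in the 9 Gy day 3 group and 1806, 1761 and 2237 in the 9 Gy day 7 group. Both 9 Gy groups were below all sham samples, but at day 3 the highest, 2480, was above the lowest 2 Gy samples. Means ran from 2903 ± 370 (SD, n = 3) for 2 Gy day 7 through 2768 ± 293 for 2 Gy day 3, 2749 ± 283 for sham and 2134 ± 302 for 9 Gy day 3 to 1935 ± 263 for 9 Gy day 7, and only sham and 9 Gy day 3 did not overlap as neighbors. The log2 fold change was -0.36 at day 3 (SE 0.15, edgeR adjusted p = 0.0606) and -0.51 at day 7 (SE 0.15, edgeR adjusted p = 0.0107). The day 3 value passed with the replicate number as a block (adjusted p = 0.0297), with DESeq2 (adjusted p = 0.0365) and without 9 Gy day 3 replicate 3 (adjusted p = 0.0243), while its adjusted p reached 0.627 with both conflicting samples left out. The day 3 value also passed among genes averaging 100 or more counts (-0.36, edgeR adjusted p = 0.0494) and with counts under 20 set to 20 (-0.68, edgeR adjusted p = 0.00447). It had the opposite sign with TMM and median-of-ratios (0.11 in each, without a call) and was higher with total counts (0.66, edgeR adjusted p = 0.000275). The day 7 call was lost with the housekeeping genes averaging 100 or more counts (-0.31, adjusted p = 0.0641), with TMM (-0.02) and with median-of-ratios (-0.02), and with total counts Cd9 was higher (0.59, edgeR adjusted p = 0.000374). Both differences with housekeeping scaling were close to the median of all genes tested, which was -0.456 at day 3 and -0.449 at day 7 on the log2 scale.

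Cd53, the leukocyte tetraspanin, did not pass in any comparison with the counts as deposited and housekeeping scaling. It had 37.0 to 41.5 normalized counts in the sham group, 29.3 to 47.8 in the 2 Gy day 3 group, 39.9 to 52.3 in the 2 Gy day 7 group, 29.6 to 46.2 in the 9 Gy day 3 group and 26.6 to 42.4 in the 9 Gy day 7 group, so that all neighbors in the order of means overlapped. Its log2 fold change at 9 Gy was 0.01 at day 3 (95% interval -0.59 to 0.61) and -0.23 at day 7 (-0.68 to 0.23). Its raw counts at 9 Gy day 3 were only 5, 10 and 14, all under 20. With counts under 20 set to 20, which raises these 3 samples, Cd53 passed at 9 Gy day 3 (log2 fold change 0.78, edgeR adjusted p = 0.0123), between the 9 Gy days (-0.95, edgeR adjusted p = 0.00741) and in the interaction of dose and day (-1.25, edgeR adjusted p = 0.00982). With total counts it was higher and passed at both 9 Gy days (1.02 and 0.85).

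**Figure D2:**
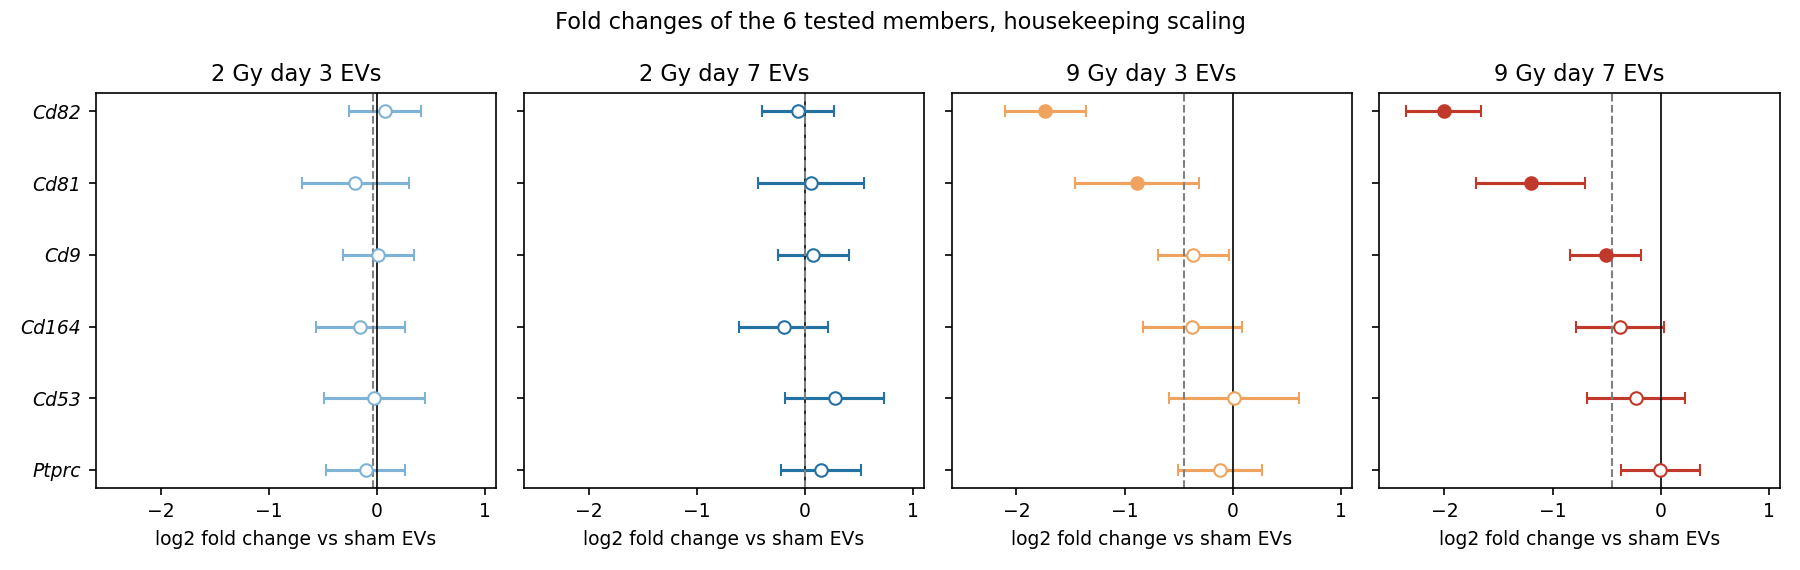
log2 fold changes against sham EVs (horizontal axis) of the 6 tested members for the 4 irradiated groups, with 95% intervals from the edgeR fit, filled where the adjusted p was under 0.05. The dashed line is the median of the 269 genes tested. All 2 Gy intervals include 0, and at 9 Gy day 7 Cd82 lies at -2.00 and Cd81 at -1.20, below the median of -0.449.

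Of the leukocyte surface proteins tested, neither passed at 9 Gy with housekeeping scaling, and the calls made under other settings ran in both directions. Ptprc had normalized counts of 308, 323.8 and 279.4 in the sham group, 326, 260.3 and 257.6 in the 9 Gy day 3 group and 313.2, 345.7 and 250 in the 9 Gy day 7 group. The 2 Gy samples had 248 to 301.8 at day 3 and 273.4 to 406.3 at day 7, and every group overlapped its neighbors. Its log2 fold change was -0.12 at 9 Gy day 3 (95% interval -0.51 to 0.27) and -0.00 at 9 Gy day 7 (-0.37 to 0.36), which is 0.34 and 0.45 above the median of all genes tested. At day 7 Ptprc was higher and passed with TMM (0.49, edgeR adjusted p = 0.0191), median-of-ratios (0.49, edgeR adjusted p = 0.019) and total counts (1.13, edgeR adjusted p = 0.00025), and at day 3 with total counts (0.91). With counts under 20 set to 20, Ptprc was lower at 9 Gy day 3 (-0.45, edgeR adjusted p = 0.0354). With that setting it was higher at 9 Gy day 7 than at day 3 (0.51, edgeR adjusted p = 0.0375). Its raw counts at 9 Gy day 3, 55, 65 and 78, were above 20, and the floor also enters the housekeeping level. Cd164 had 196.9, 146.9 and 231.9 normalized counts in the sham group, 183.8, 148.1 and 118.9 in the 9 Gy day 3 group and 129.3, 142.9 and 171.4 in the 9 Gy day 7 group, with 150.9 to 193.1 in the 2 Gy samples. The groups overlapped, and the log2 fold change was -0.38 at both days (95% interval -0.83 to 0.08 at day 3 and -0.78 to 0.03 at day 7). Sham replicate 2 was the lowest of its group, and without it Cd164 passed at both days (-0.54 with adjusted p = 0.0416 and -0.54 with adjusted p = 0.0241). With counts under 20 set to 20 it was lower and passed at day 3 (-0.70, edgeR adjusted p = 0.00337), although its own raw counts there were 31, 37 and 36. With total counts Cd164 was higher and passed at both days (0.65 and 0.71, edgeR adjusted p = 0.0316 and 0.00938).

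Spn, which encodes CD43, was just under the minimum and is given by its raw counts. These were 21, 29 and 25 in the sham group, 36, 32 and 30 in the 2 Gy day 3 group, and 28, 35 and 20 in the 2 Gy day 7 group. They were 15, 10 and 7 in the 9 Gy day 7 group, and 1 in each of the 3 samples in the 9 Gy day 3 group, where 1 is the lowest count in the file. After scaling, the 9 Gy day 7 samples lay below the sham samples without overlap (5.26 ± 2.04 against 20.03 ± 1.97 normalized counts, SD, n = 3). All 9 Gy counts of Spn are under 20 and no background was subtracted, so the size of the difference is given only as a range. The 95% counting interval of the summed scaled count relative to sham was 0.0418 to 0.629 at 9 Gy day 3 and 0.167 to 0.4 at 9 Gy day 7, from 3 and 32 counts against 75. With no minimum on counts, over all 561 genes, Spn was lower and passed at 9 Gy day 3 (edgeR adjusted p = 0.0081), where 22.8% of genes passed, and at 9 Gy day 7 (edgeR adjusted p = 5.14e-05), where 43.3% did. How counts of 0 were written in the file is not known, and the day 3 value rests on counts at its lowest value. Cd48 had 7 to 15 raw counts in every sample outside 9 Gy day 3 and 1 in each sample there. The same interval was 0.108 to 1.8 at day 3 and 0.408 to 1.2 at day 7, so no difference was detectable at this depth. The counting intervals do not include variation between samples.

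EVs from mice given 2 Gy gave no detectable difference in these genes. At 2 Gy day 3 and at 2 Gy day 7, 0 of the 6 tested members passed by edgeR, and 0 had an unadjusted p under 0.05; over all 269 genes 0% passed at either day, and 2.6% and 0.372% had an unadjusted p under 0.05. DESeq2 likewise called 0 of the 6 at both days. For Cd82 the log2 fold change was 0.07 at day 3 (95% interval -0.26 to 0.40) and -0.07 at day 7 (-0.40 to 0.27). The value for Cd81 was -0.20 (-0.69 to 0.29) and 0.06 (-0.44 to 0.55). Cd53 had the largest value of the 6, 0.28 at day 7 (-0.18 to 0.73).

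The doses were then compared directly, over both days, to test whether the response to 9 Gy EVs differed from that to 2 Gy EVs. Cd82 was lower by 1.87 on the log2 scale at 9 Gy (log2 fold change -1.87, SE 0.12, edgeR adjusted p = 1.15e-08), Cd81 by 0.97 (-0.97, SE 0.18, edgeR adjusted p = 0.000267) and Cd9 by 0.48 (-0.48, SE 0.11, edgeR adjusted p = 0.00147). The Cd9 call was lost with TMM (-0.01, adjusted p = 0.911) and median-of-ratios (-0.03, adjusted p = 0.816), and the Cd81 call with total counts (0.16, adjusted p = 0.381). In all, 3 of the 6 fell and 0 rose, where 52% of all genes tested fell and 15.6% rose, or 67.7% in either direction. Cd53 (-0.23), Cd164 (-0.20) and Ptprc (-0.08) did not pass. Cd164 passed here with counts under 20 set to 20 (-0.35, edgeR adjusted p = 0.0181), and Ptprc was higher and passed with TMM (0.39) and median-of-ratios (0.37). Under total counts 4 of the 6 rose, Cd9 among them (0.65), and Cd82 alone fell (-0.75). In Cd82 and Cd81 all 6 samples at 9 Gy were below all 6 at 2 Gy, as in 36.1% of genes tested, whereas those of Cd9 overlapped.

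No member passed between the days of EV isolation. Between day 7 and day 3, 0 of the 6 members passed by edgeR at 2 Gy and 0 at 9 Gy, as did 0% of all genes tested in each, and the test of whether the day effect differed between doses gave 0 of 6 and 0%. Unadjusted p-values were under 0.05 for 0 of the 6 in these 3 comparisons and for 1.49%, 2.23% and 1.49% of all genes tested. By DESeq2 the count was 0 of 6 in each. At 9 Gy, day 7 was lower than day 3 by 0.27 in Cd82 (log2 fold change -0.27, 95% interval -0.65 to 0.10) and by 0.31 in Cd81 (-0.31, -0.89 to 0.27), and neither passed. Because samples of the same number may be paired, the groups of each dose were also fitted alone with that number as a block, a fit chosen after the data were seen. In it 0 of the 6 members passed at 2 Gy, where 10% of all genes tested did, and 0 at 9 Gy, where 0% did. At 2 Gy the day 7 sample was higher than the day 3 sample of the same number in all 3 pairs for Cd9, Cd53, Cd81 and Ptprc, with paired log2 differences of 0.26 in Cd81 (edgeR adjusted p = 0.0825) and 0.25 in Ptprc (edgeR adjusted p = 0.115). At 9 Gy it was lower in all 3 pairs for Cd9 and Cd82, with -0.26 in Cd82 (edgeR adjusted p = 0.692). The share of all genes tested that moved alike in all 3 pairs was not computed, so no day effect is read from these directions. The low totals of the 9 Gy day 3 group limit the comparison of days at 9 Gy.

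The size of these differences, and for some members their sign, depended on how samples were scaled. With the main scaling the median of all genes tested was -0.456 at 9 Gy day 3 and -0.449 at day 7. With TMM it was 0.01 and 0.03, and with total counts 0.56 and 0.65, and the share of called genes that fell went from 78.7% to 50.4% and 21.4% at day 3 and from 80.5% to 50.3% and 17.8% at day 7. Cd82 was lower and passed under all 5 scalings at both days, from -1.73 to -0.72 at day 3 and from -2.00 to -0.92 at day 7. Cd81 was lower and passed at day 7 under 4 of the 5 (-0.09 with total counts), and at day 3 under 2 of the 5, with 0.12 and the opposite sign under total counts. Among the 5 scalings, Cd53 was called under total counts alone. Relative to the median gene of the panel, therefore, Cd82 and Cd81 were lower at day 7, Cd9 was close to it and Ptprc was above it.

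**Figure D3:**
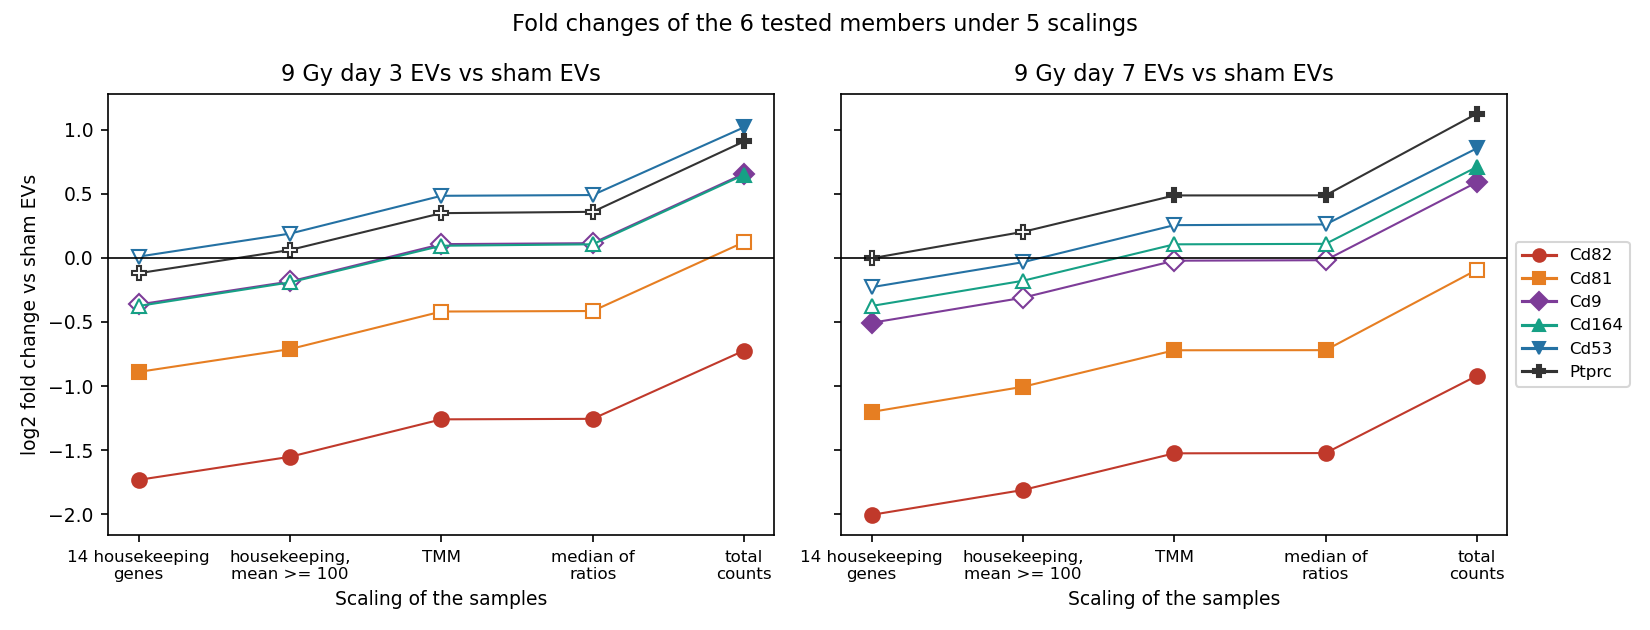
log2 fold changes against sham EVs (vertical axis) of the 6 tested members under 5 ways of scaling the samples (horizontal axis), for EVs from mice 3 and 7 days after 9 Gy. Filled symbols had an adjusted p under 0.05 and lines join values of 1 gene. Cd82 stays below 0 throughout, from -2.00 to -0.92 at day 7, while Ptprc goes from -0.00 to 1.13.

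To set the members against each other without any scaling, the raw count of Cd82 was divided by that of each other member in the same sample, an analysis chosen after the data were seen. The size of such a ratio depends on the probes and only its change between samples is read. Cd82 over Cd9 was 0.234, 0.179 and 0.211 in the sham group, 0.21 to 0.222 in the 2 Gy day 3 group and 0.175 to 0.213 in the 2 Gy day 7 group. It was 0.0741 to 0.0826 in the 9 Gy day 3 group and 0.0681 to 0.0758 in the 9 Gy day 7 group, so the groups did not overlap between 9 Gy and the rest. Cd82 over Cd53, 2 tetraspanins, was 10.5 to 17.5 in the 9 samples without 9 Gy EVs and 3.85 to 4.96 in the 6 with them. Cd82 over Cd81 was 2.5 to 4.55 and 1.58 to 2.21. Cd82 thus fell relative to the other tetraspanins, including Cd81. All 5 ratios with Cd82 separated the 6 samples from the other 9, as did those of Cd81 with Cd53 (1.81 to 3.13 against 3.3 to 5.07) and of Ptprc with Cd81 (2.29 to 4.58 against 1.57 to 2.2), making 7 of 15 pairs of members. Of all 36046 pairs of genes tested, 38.3% separated in this way.

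**Figure D4:**
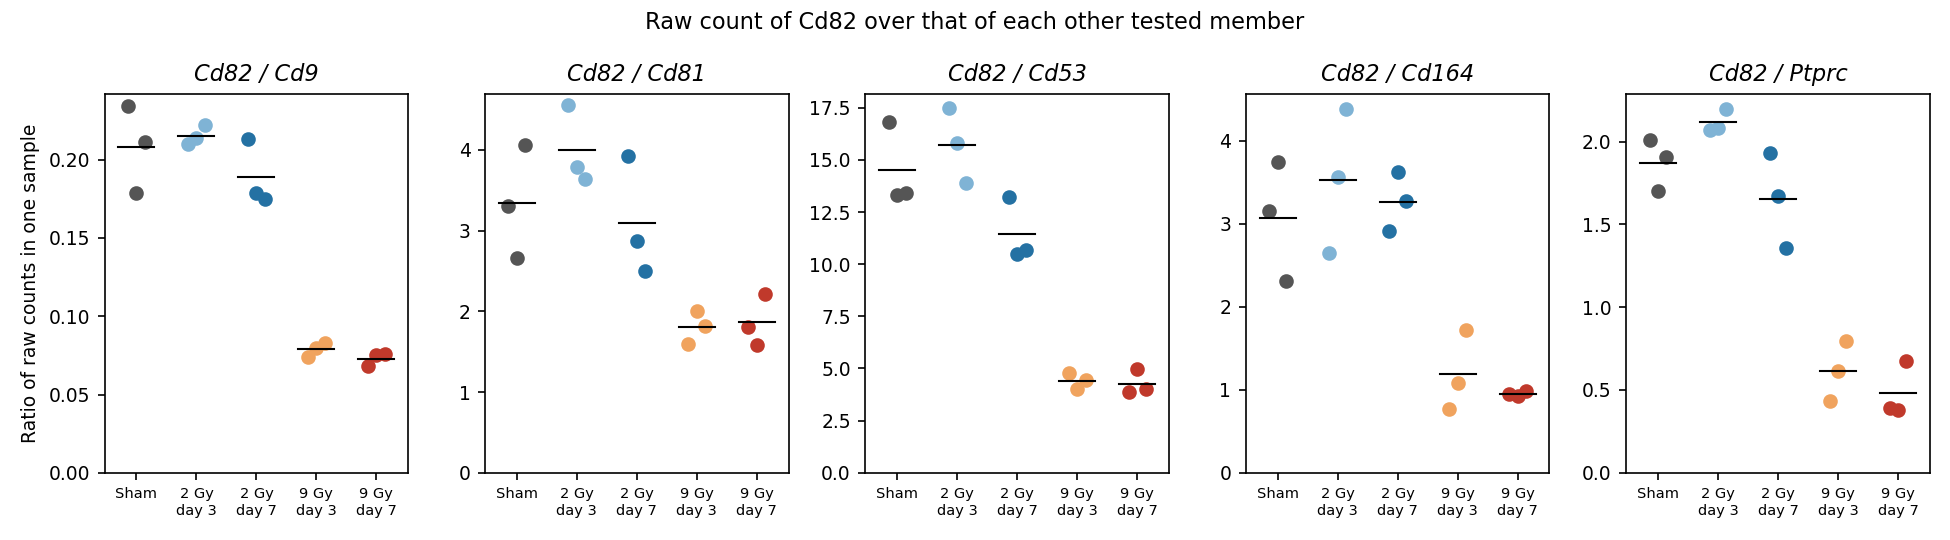
Raw count of Cd82 divided by that of Cd9, Cd81, Cd53, Cd164 or Ptprc in the same sample (vertical axis, linear from 0, a separate scale for each panel) in each EV group (horizontal axis). Each circle is 1 sample and the line is the mean of 3. In every panel the 6 samples at 9 Gy lie below the other 9, for instance 0.0681 to 0.0826 against 0.175 to 0.234 for Cd82 over Cd9.

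The partners of these proteins were taken from a list of ligands, integrins and kinases known to bind them. Of 21 partners listed, 17 had a row and 10 were tested. At 9 Gy, 2 of the 10 rose and 6 fell at each day, where 11.2% of all genes tested rose and 41.3% fell at day 3, and 11.9% and 49.1% at day 7. The list had a median log2 fold change of -0.68 at day 3 and -0.54 at day 7, beside -0.456 and -0.449 over all genes tested, and 0 passed at 2 Gy. Icam1, the ligand of the β2 integrins and of CD43, rose by 3.15 (SE 0.75, edgeR adjusted p = 0.00364) and 3.35 (SE 0.72, edgeR adjusted p = 0.0013) at the 2 days. Its normalized counts were spread widely in the sham group, 20.8, 64.6 and 9.79, but all 6 samples at 9 Gy, from 145.5 to 480.4, were above them. Itga4, the α4 integrin chain that pairs with β1 and associates with tetraspanins, rose by 0.90 and 0.81 (edgeR adjusted p = 0.00889 and 0.00926). Itgam, the αM chain of the macrophage integrin Mac-1, fell, with 250.2, 193.8 and 290.7 normalized counts in the sham group and 64.1 to 85.1 over both 9 Gy groups (log2 fold change -1.76 and -1.60, edgeR adjusted p = 9.59e-06 and 4.61e-06). Fyn, a Src family kinase regulated by CD45, had log2 fold changes of -1.54 at both days (edgeR adjusted p = 0.00378 and 0.000181). Raw counts at 9 Gy day 3 were low, 4, 5 and 7 for Fyn and 13, 16 and 23 for Itgam. The directions of these 4 genes were the same under all 5 scalings, although with total counts Fyn did not pass at either day and Itgam did not pass at day 7.

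A second list held adhesion and surface proteins of leukocytes, and it shares Cd44, Itgb1 and Itgb2 with the partners. Of 16 listed, 10 had a row and 7 were tested, and at 9 Gy 3 fell at day 3 (Cd44, Itgal and Itgb1), 4 fell at day 7 (the same and Cd99) and 0 rose, with medians of -0.65 and -0.56. These counts are near the background, since 41.3% and 49.1% of all genes tested fell. Itgb2, Cd24a and Slamf7 did not pass at either day. Itgal, the αL chain of LFA-1, a receptor for ICAM-1, fell by 2.57 at day 3 (SE 0.65, edgeR adjusted p = 0.00515) and by 2.39 at day 7 (SE 0.51, edgeR adjusted p = 0.00127). Its sham samples had 216.7, 294.6 and 103.9 normalized counts and the 6 samples at 9 Gy 28.0 to 57.0, and it was lower and passed under all 5 scalings. Its raw counts at 9 Gy day 3 were only 5, 7 and 13. Cd44, the hyaluronan receptor, had log2 fold changes of -0.70 and -0.56, and Itgb1, the β1 integrin chain that tetraspanins bind, of -0.49 and -0.43. Both turned positive under total counts (0.33 and 0.55 for Cd44, 0.54 and 0.68 for Itgb1), and Itgb1 at day 7 also with TMM and median-of-ratios (0.05 in each). Neither gene passed at either day with TMM.

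For each tested member, the genes whose 4 log2 fold changes against sham EVs were nearest to its own were found by the root mean square difference among 250 other genes tested. These 4 values share the sham samples. Nearest to Cd82 was Ptgs2, the inducible cyclooxygenase, at 0.09, with -1.72 and -2.03 at 9 Gy, followed by Bst1 at 0.17. Cd81 lay nearest to Hcst (0.11) and H60a (0.12), and Cd9 to Clec5a (0.05) and Lilrb4 (0.07). The nearest to Cd53 were Blnk (0.11) and Ikbkb (0.11), to Cd164 Bcap31 (0.04) and Csf2rb (0.10), and to Ptprc the LPS receptor gene Tlr4 (0.08) and Clec4e (0.11).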

How the data were processed

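RNA of RAW 264.7 macrophages was measured in 15 samples, 5 groups of 3, with the nanoString nCounter Mouse Immunology panel. The authors deposited raw counts of 561 genes as whole numbers, without control probes, so no background was subtracted; the normalization in nSolver that the paper describes is not in these values. Samples were grouped by title. The members and gene lists were chosen with earlier results of these data known. Scaling was to the geometric mean of 14 housekeeping genes. The 269 genes averaging 20 or more counts were tested, and all 5 groups entered 1 quasi-likelihood fit in edgeR 4.0.16 (R 4.3.3, prior count 0.125), with Benjamini-Hochberg adjustment over the genes tested. The SE is the log2 fold change divided by the square root of F. The fit was tested on simulated data.

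All members were named, and from each list the 2 largest and 2 smallest 9 Gy changes past the threshold at both days; Cd99 was named after its value was seen. Counts per sample set the precision, as totals of 43176 to 837995 show. Deviations of samples with the same number from their group means correlated between the days of one dose, by 0.397 to 0.783 at 2 Gy and by 0.354 to 0.733 at 9 Gy, so the day comparisons were also paired. Samples with different numbers correlated by -0.7 to 0.616 at 2 Gy and by -0.687 to 0.443 at 9 Gy, and replicate 3 of 2 Gy day 3 and replicate 1 of 9 Gy day 3 each correlated best with replicate 2 of day 7, so the numbers are an uncertain guide to pairs. Alternatives were other scalings (TMM, median-of-ratios, total counts, the housekeeping genes averaging 100 or more), filters, a floor of 20 counts, the prior count, DESeq2 1.42.0, a replicate block, the conflicting samples, and each sample left out. The within-sample ratios, the paired fit of the groups of one dose and the fit without the 9 Gy day 3 group were chosen after the data were seen. Promoter sequences are from RefSeq (GRCm38.p6).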

Additional observations from a re-analysis of the deposited data

How the results depend on the processing

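Of 976 alternative values of the tested members over all comparisons, 933 stayed on their side of the threshold, 11 lost and 15 gained a call, and 17 changed sign with a call in one of the settings compared. Of the 933, 63 changed sign with no call in either setting, 24 of them with another scaling, 28 with 1 sample left out and 11 under other alternatives. At 9 Gy day 3 the count of members past the threshold was 2 of 6, beside 141 of all 269 genes tested. It became 1 with TMM, 1 with median-of-ratios, 5 with total counts and 6 with counts under 20 set to 20. Over all 269 genes these settings called 119, 121, 154 and 184. With the conflicting samples placed at day 7 or left out, 1 sample remained in the group, and Cd81 was at -0.64. Leaving out 1 sample each gave 1 to 3 members. Total counts gave 5 in place of 3 at 9 Gy day 7 and 5 in place of 3 for 9 Gy against 2 Gy. Over all 269 genes they gave 174 in place of 164 and 204 in place of 182. The floor of 20 counts gave 2 in place of 0 between the 9 Gy days (Cd53 and Ptprc), where 99 of the 269 genes passed in place of 0. For the interaction of dose and day it gave 1 in place of 0 (Cd53), where 62 passed in place of 0. For 9 Gy against 2 Gy it gave 4 in place of 3 (Cd164 added). The floor raises counts of the group with low totals by construction. It was set before scaling, so it also entered the housekeeping level. At 9 Gy day 3 all raw counts of Cd9, Cd164 and Ptprc were above 20 and were not raised.

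The sign changes that involve a call came from the scaling. Against sham EVs with total counts, the log2 fold changes at day 3 were 0.66 for Cd9, 0.12 for Cd81, 0.65 for Cd164 and 0.91 for Ptprc, and at day 7 0.59 for Cd9, 0.85 for Cd53, 0.71 for Cd164 and 1.13 for Ptprc. For 9 Gy against 2 Gy they were 0.65 for Cd9, 0.89 for Cd53, 0.16 for Cd81, 0.93 for Cd164 and 1.07 for Ptprc. Ptprc was 0.49 at day 7 and 0.39 for 9 Gy against 2 Gy with TMM, and 0.49 and 0.37 with median-of-ratios. Cd9 for 9 Gy against 2 Gy lost its call with TMM (-0.01) and median-of-ratios (-0.03).

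With the replicate block over all groups, 3 members passed at 9 Gy day 3 (Cd9 added, log2 fold change -0.38, adjusted p = 0.0297), 3 at 9 Gy day 7 and 3 for 9 Gy against 2 Gy, and the block changed no other member's call. In the paired fit of the groups of one dose, 0 members differed between days, while 27 of the 269 genes passed at 2 Gy and 0 at 9 Gy. Without the 9 Gy day 3 group, no member's call changed in the comparisons that remained. The low totals of that group limit what can be detected for Cd53, Spn and Cd48.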
